A study of Mus musculus with 40 samples.

Results

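QKO cells are mouse cells without lamins and without an intact lamin B receptor gene. Their passage from naive to primed pluripotency was followed by setting 4 libraries of QKO epiblast-like cells (EpiLCs) against 4 libraries of QKO embryonic stem (mES) cells, 8 of the 40 total RNA libraries of the series. *Lmna*, *Lmnb1* and *Lmnb2* are deleted in these cells, as in the TKO line they were made from, and *Lbr* carries indels in exon 2. They are a single clone, and each replicate is 1 well, so the clone and the genotype cannot be told apart and the replicate error is the spread between wells. The passage of wild-type (WT) cells, a littermate line without these alleles that gave 8 libraries at each stage, was used as the measure of size. The TKO parent carries an extra chromosome 8, and some of its cells have lost the Y, while subpopulations of the WT line lack the Y or carry extra copies of 6 and 8. At both stages the libraries hold RNA of the cells left in the well at harvest. The study reports severely impaired survival of QKO cells in EpiLC culture. A change within QKO cells and a selection of survivors therefore cannot be told apart here. mES cells of both genotypes were held naive with LIF, 3 µM CHIR-99021 (an inhibitor of GSK3) and 1 µM PD0325901 (an inhibitor of MEK). EpiLCs of both genotypes were made in N2B27 to which FGF (20 ng/mL) and Activin A (12 ng/mL) were added, with all wells collected at 48 h. Of 56748 genes, 23399 had enough reads to be tested, as had 1142 of 1243 families of transposable elements (TEs).

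Naive mES cells resemble the epiblast of the blastocyst, and EpiLCs resemble the formative epiblast that forms around implantation. In this step cells switch off a circuit of naive transcription factors that LIF and WNT signals sustain, and switch on de novo DNA methyltransferases and epiblast factors under FGF and Nodal or Activin signals. Lamins build the fibrous lamina that lines the nuclear envelope from within, and the lamin B receptor spans the inner nuclear membrane. Both hold heterochromatin, in which many TEs lie silent, at the nuclear edge. The comparison asks which genes and TE families move when cells without these tethers make the same step, and by how much next to WT cells.

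The 8 QKO libraries held between 24491961 and 33019258 counts on genes, WT replicates 1 to 4 held 25360443 to 33516247 and WT replicates 5 to 8 held 39434595 to 48863506. No 2 QKO libraries of a stage were alike within sampling noise. WT mES replicate 7 stood apart from the other WT mES libraries in its share of TE counts, and QKO mES replicate 1 in the TE family RLTR13C2. Levels are CPM, counts scaled to library size after TMM, with the standard deviation (SD) over libraries, n = 4 for QKO and n = 8 for WT. Passages are log2 fold changes of EpiLCs over mES cells with their standard errors (SE). A feature rose or fell when its edgeR adjusted p was under 0.05 and its fold over 2, and 2 passages differed when the interaction term (the QKO log2 fold change minus that of WT) passed the same thresholds. The 2 passages share no library.

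The targeted genes were read first. *Lmnb1* (ENSMUSG00000024590.9, GRCm39 chromosome 18, 56840885 to 56886496), the lamin B1 gene, had 15.5, 12.0, 14.3 and 13.6 CPM in QKO mES replicates 1 to 4 and 2.09, 1.85, 1.64 and 1.74 CPM in QKO EpiLC replicates 1 to 4, against means of 515 ± 21.0 and 516 ± 17.6 CPM in WT. All 8 QKO libraries lay far below every WT library. The little *Lmnb1* RNA that was left fell in the QKO passage (-2.92 ± 0.09) while WT showed 0.00 ± 0.05, so the passages differed by -2.93 ± 0.11. *Lmnb2*, for lamin B2, had 2.58 ± 0.797 CPM in the naive QKO wells and 1.48 ± 0.329 CPM in QKO EpiLCs, next to 105 ± 7.14 and 95.9 ± 3.83 CPM in WT. *Lmna*, for lamins A and C, fell in both passages, by -1.18 ± 0.12 to 8.38 ± 1.05 CPM in QKO and by -2.35 ± 0.08 to 11.3 ± 1.16 CPM in WT. The drop was smaller in QKO by 1.17 ± 0.14 on the log2 scale, or by 0.98 with WT replicates 1 to 4 alone, which no longer passed the fold. Unlike *Lmnb1* and *Lmnb2*, *Lmna* thus kept RNA in QKO EpiLCs of the same order as in WT. Counts per gene do not show which exons those reads cover. *Lbr* RNA, which indels need not remove, was 237 ± 1.49 CPM in the naive QKO wells and 277 ± 17.1 CPM in QKO EpiLCs, with nearly the same log2 fold change in QKO (0.22 ± 0.15) and WT (0.21 ± 0.11).

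QKO cells changed about as many genes as WT cells, and mostly the ones that WT cells changed. In QKO 4138 genes rose and 2959 fell, so that 17.7% and 12.6% of all tested genes were called, and in WT 4270 rose and 3007 fell (18.2% and 12.9%). Without regard to the fold, all 4 QKO EpiLC libraries lay above all 4 QKO mES libraries for 28.6% of genes and below them for 26.6%. Of the genes that rose in WT, 2965 also rose in QKO, 69.4% of the WT list and 71.7% of the QKO list. Of those that fell in WT, 1998 also fell in QKO, 66.4% of the WT list and 67.5% of the QKO list. The log2 fold changes of the 2 passages had a Pearson r of 0.82 and a Spearman rho of 0.74 over the 23399 genes, which are not independent replicates. Over the genes called in WT, the QKO log2 fold change was at the median 0.86 of the WT one. These genes were picked for a large WT change, which by itself favours a ratio below 1. Over all genes, without such a choice, the median size of change was 0.59 in QKO and 0.55 in WT. The passages differed for 1623 genes in the direction of higher in QKO (6.94% of those tested) and 1332 in the direction of lower (5.69%). Genes that went opposite ways were few, 74 that rose in QKO and fell in WT and 33 that fell in QKO and rose in WT. In QKO 1099 genes rose that WT did not call, 435 of them with a called difference, and 928 fell that WT did not call, 355 of them with a called difference.

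**Figure D1:**
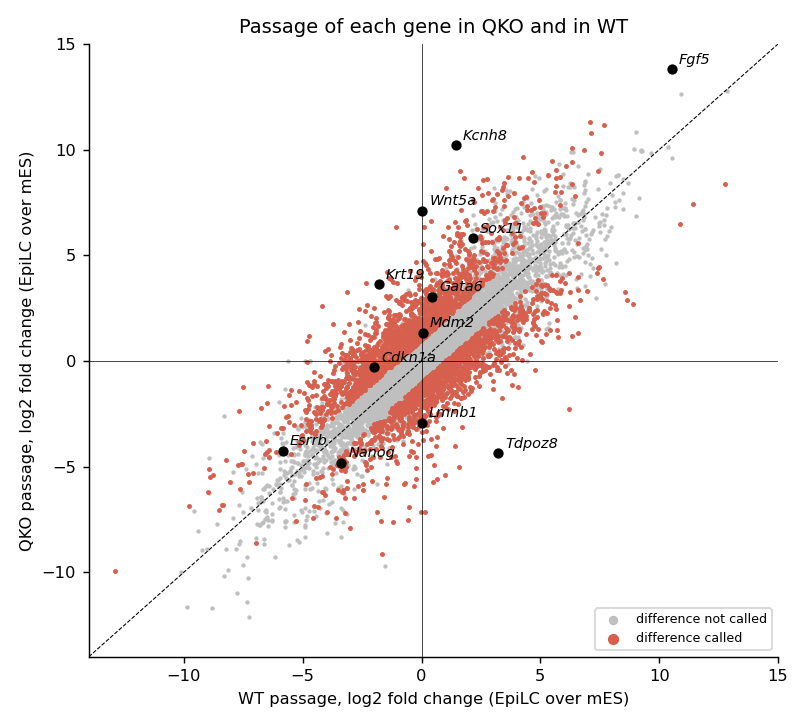
Each point is 1 of the 23399 tested genes, with the log2 fold change of EpiLCs over mES cells in WT on the horizontal axis and in QKO on the vertical axis; red points are the 2955 genes whose passages differed, grey points are the others, black points are named genes, and the dashed line marks equal change. The cloud runs along the line (Pearson r 0.82), and Wnt5a, Krt19 and Kcnh8 lie far above it while Tdpoz8 and Lmnb1 lie below.

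The gap between the passages could lie in the mES cells that QKO starts from or in the EpiLCs it reaches. Each stage was therefore compared between QKO and WT in the same fit, a comparison added after the data were seen. Of the 1623 genes with the higher QKO passage, 485 (29.9%) differed from WT in mES cells alone, 665 (41%) in EpiLCs alone and 98 at both stages with a change of side, and 225 (13.9%) at neither stage. Of the 1332 genes with the lower passage, 416 (31.2%) differed in mES cells alone, 501 (37.6%) in EpiLCs alone, 83 at both stages with a change of side and 272 (20.4%) at neither. Over all tested genes, QKO was called higher than WT for 10.6% in mES cells and 13% in EpiLCs, and lower for 6.66% and 8.16%. More genes thus differed at the EpiLC stage whatever their passage. *Sox11* and *Fgfr2*, below, are of the first kind, *Gata6* and *Mdm2* of the second, and *Wnt5a*, *Eomes* and *Krt19* crossed from below WT to above it. By kind of gene, 31.7% of tested protein-coding genes, 40.5% of lncRNAs and 13% of pseudogenes were called in the QKO passage. Median log2 fold changes of the autosomes and the X chromosome in QKO ran from -0.09 (chromosome 16) to 0.14 (X), and chromosome 8 stood at 0.09, against 0.12 in WT.

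The strongest risers of the QKO passage were genes that were almost silent in QKO mES cells. Leading them was *Fgf5* (ENSMUSG00000029337.3, chromosome 5, 98402043 to 98424889), an FGF ligand that marks epiblast at this step, with 0, 0, 0 and 0.0343 CPM in the QKO mES libraries and 177, 181, 185 and 177 CPM in the QKO EpiLC libraries. In WT it ran from 0.0226 to 0.194 CPM (median 0.0797) in mES cells and from 132 to 157 CPM (median 147) in EpiLCs. Both genotypes thus switched it on without overlap between the stages. The 4 QKO mES libraries held 1 *Fgf5* read in all, so the QKO change is a ratio of 20102 with a 95% interval of 3608 to 794029, which like all such intervals here covers counting error only. In EpiLCs QKO and WT differed by 0.31 on the log2 scale, less than 2-fold, and the called difference of the passages (3.29 ± 0.76) rests on that single read.

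*Car4*, a carbonic anhydrase, reached 88.1 ± 4.60 CPM from 1 read (ratio 9806, 1760 to 387366). *Enpp2*, the lipid enzyme autotaxin, reached 79.4 ± 3.23 CPM from 1 read (ratio 8868, 1591 to 350285), and neither had a called difference from WT. *Rbbp8nl*, *Gpm6a* and *Abca9* had no read in any QKO mES library and reached 8.95 ± 0.462, 6.52 ± 0.431 and 6.28 ± 0.166 CPM, at least 332-fold, 242-fold and 234-fold higher with a floor of 3 reads over the group. *Gpm6a* encodes a neuronal membrane protein and *Abca9* a transporter of the ABC family. The insulin receptor substrate *Irs4* rose from 1 read to 29.0 ± 0.145 CPM (ratio 3228, 579 to 127552) and the glycosyltransferase *Galnt3* from 2 reads to 21.6 ± 2.17 CPM (ratio 1200, 332 to 9917). *Zfp608* (9.84 ± 0.22), *Bcl11a* (9.41 ± 0.32), *Cass4* (9.20 ± 0.34) and *Vrtn* (9.02 ± 0.44) complete the highest 12, the first 2 being zinc finger factors. *Rbbp8nl*, *Irs4*, *Galnt3*, *Zfp608*, *Bcl11a*, *Cass4* and *Vrtn* rose more in QKO than in WT, by 2.26 to 4.20 on the log2 scale. The highest 12 were picked for a large QKO rise, which by itself favours a higher QKO passage. All 7 were lower in QKO mES cells than in WT mES cells, and in EpiLCs *Galnt3* alone of them was called lower. The difference of *Abca9* (3.66 ± 1.08) was lost with WT replicates 1 to 4 alone (3.29), without any 1 of the QKO mES libraries (3.70 each), with no filter on low counts (3.73) and in DESeq2 (2.58).

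The deepest falls took genes of naive cells to near silence. *Cnga4*, a channel subunit, went from 11.6 ± 0.713 CPM to no read in QKO EpiLCs (at least 484-fold lower), and the homeobox gene *Obox6* from 11.2 ± 1.28 CPM to none (at least 472-fold lower). *Sgcz*, a sarcoglycan, ended at 1 read from 14.1 ± 0.705 CPM, *Clec4a1*, a lectin, at 1 read from 9.28 ± 0.757 CPM, and *Dcstamp*, known from cell fusion in osteoclasts, at 1 read from 5.52 ± 0.650 CPM. *Pramel6* fell from 44.5 ± 0.736 to 0.0410 ± 0.0519 CPM, *Crxos* by 8.97 on the log2 scale (SE 0.15), *Prdm14* by 8.91 (0.25), the Ras-related GTPase *Mras* by 8.67 (0.23) and the water channel *Aqp3* by 8.59 (0.20). *Srarp* went from 7.21 ± 0.446 CPM to 3 reads. *Spic*, an ETS factor of naive cells, fell by 9.92 (0.32) to 7 reads in QKO and to no read in WT. Its called difference (2.99 ± 1.13, edgeR adjusted p = 0.0443) was lost with either set of 4 WT replicates (3.16 and 2.74), with QKO and WT libraries only (2.96) and without QKO EpiLC replicate 3 (2.24) or 4 (2.98) or mES replicate 2 (2.96) or 3 (2.98). *Aqp3* alone of the others differed between passages (-1.62 ± 0.33). *Obox6* and *Pramel6* have near copies that may share their reads.

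**Figure D2:**
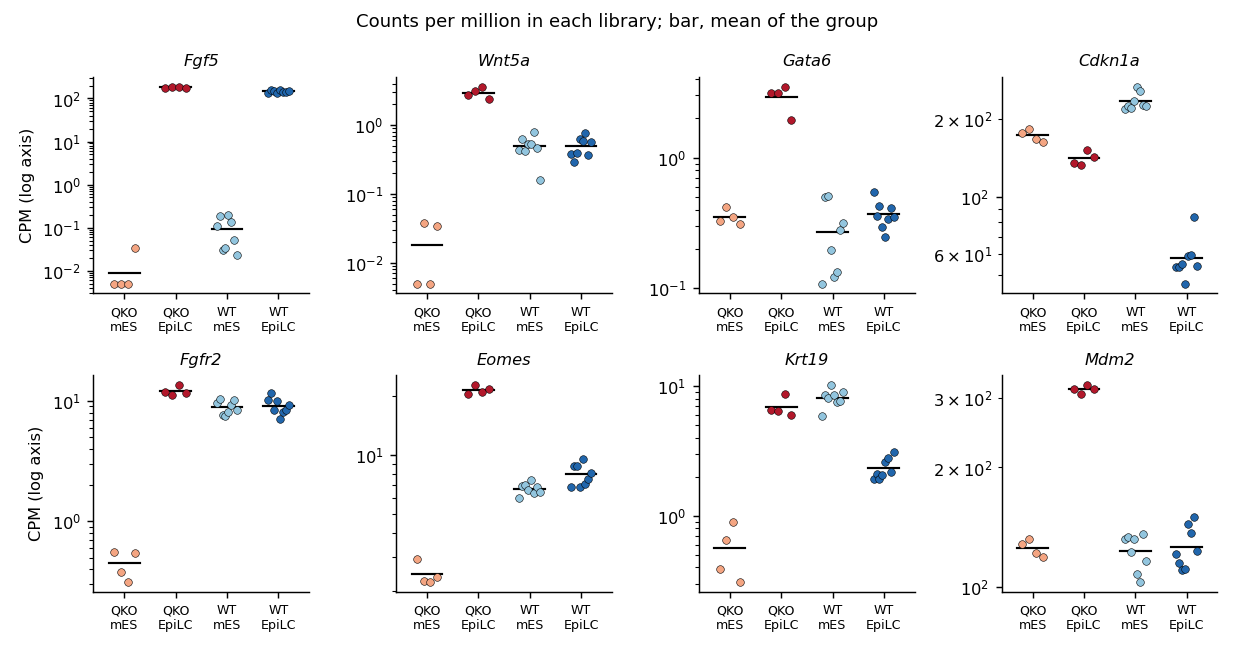
CPM on a log axis in each library (points) with the group mean (bars) for 8 genes, in QKO mES cells (n = 4), QKO EpiLCs (n = 4), WT mES cells (n = 8) and WT EpiLCs (n = 8); libraries with no read are drawn at the bottom of the panel. Fgf5 rises in both genotypes, while Wnt5a, Gata6, Fgfr2, Eomes, Krt19 and Mdm2 were called as rising in QKO and not in WT, and Cdkn1a as falling in WT and not in QKO.

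The naive circuit was switched off in QKO. Of 15 naive genes 13 fell, 0 rose and 2 passed neither threshold in either direction, with a median log2 fold change of -4.81 next to 0.05 over all genes, and the WT counts were the same with a median of -4.78. Beside this list and each one below, 17.7% of all tested genes rose and 12.6% fell in QKO, with 18.2% and 12.9% in WT. A higher QKO passage was called for 6.94% of all genes and a lower one for 5.69%. *Nanog* (ENSMUSG00000012396.13, chromosome 6, 122684448 to 122691592), a homeodomain factor of the naive state, had 829, 826, 812 and 808 CPM in the naive QKO wells and 26.7, 28.7, 31.1 and 30.3 CPM in QKO EpiLCs, next to 45.0 to 107 CPM (median 78.2) in WT EpiLCs. Every QKO EpiLC library was below every WT EpiLC library. *Nanog* thus fell further in QKO (-4.81 ± 0.21) than in WT (-3.39 ± 0.14), a difference of -1.42 ± 0.22 that was -0.91 with WT replicates 5 to 8 alone. *Esrrb* (ENSMUSG00000021255.18, chromosome 12, 86407891 to 86568402), an orphan nuclear receptor that acts with *Nanog*, showed the reverse. It had 873, 866, 842 and 828 CPM in the naive QKO wells and 38.7, 41.9, 50 and 49.6 CPM in QKO EpiLCs, where WT EpiLCs had 13.9 to 19.3 CPM (median 15.1). The QKO EpiLC libraries all lay above the WT ones, and the fall was shallower in QKO (-4.24 ± 0.12) than in WT (-5.84 ± 0.09).

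*Nr0b1*, a nuclear receptor that dampens *Pou5f1* activity, and *Dppa3*, a maternal factor that protects DNA from methylation changes, also fell less in QKO (-1.19 ± 0.20 and -2.26 ± 0.23) than in WT (-3.62 ± 0.16 and -4.78 ± 0.19). Neither was called between QKO and WT mES cells, and both were higher in QKO EpiLCs, by 1.79 and 1.99 on the log2 scale. By contrast *Tfcp2l1* (-6.62 ± 0.20 against -6.66 ± 0.14), *Klf4* (-5.13 ± 0.24 against -4.97 ± 0.17) and *Prdm14* (-8.91 ± 0.25 against -9.03 ± 0.17), 3 further naive factors, fell to a like extent, with differences of 0.03 ± 0.19, -0.16 ± 0.27 and 0.13 ± 0.57. In all, 4 naive genes fell less in QKO and 2 fell more. Of 8 core pluripotency genes 3 rose and 1 fell, and *Sox2*, the one that fell, went from 315 ± 15.9 to 125 ± 8.68 CPM in QKO and from 323 ± 24.3 to 57.7 ± 9.14 CPM in WT. That difference of 1.15 ± 0.12 was 0.90 with WT replicates 5 to 8 alone. *Pou5f1*, which encodes OCT4, had 362 ± 20.1 CPM in the naive QKO wells and 288 ± 20.8 CPM in QKO EpiLCs (-0.33 ± 0.11). *Cripto*, a co-receptor of Nodal, had 273 ± 8.78 and 189 ± 4.40 CPM in QKO (-0.53 ± 0.15) but rose in WT from 249 ± 72.7 to 630 ± 56.9 CPM, a difference of -1.87 ± 0.18.

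Epiblast factors came on. Of 17 formative and primed genes 13 rose in QKO and 0 fell (median 3.16), against 14 and 0 in WT (median 2.74). *Dnmt3b* (ENSMUSG00000027478.16, chromosome 2, 153491370 to 153529650), a de novo DNA methyltransferase, had 167, 170, 155 and 164 CPM in the naive QKO wells and 1735, 1712, 1682 and 1642 CPM in QKO EpiLCs, where WT had 113 to 206 CPM (median 147) and 2722 to 3306 CPM (median 3084). The stages did not overlap in either genotype, and QKO EpiLCs all lay below WT EpiLCs. The rise was 3.37 ± 0.13 in QKO and 4.32 ± 0.10 in WT, a difference of -0.95 ± 0.15 that fell short of 2-fold with all libraries and passed with WT replicates 1 to 4 alone (-1.24). Its relative *Dnmt3a* rose alike, from 35.4 ± 1.15 to 645 ± 17.7 CPM (4.19 ± 0.11, WT 4.04 ± 0.07). The POU factor *Pou3f1* (8.99 ± 0.20, WT 7.44 ± 0.12), the SOX factor *Sox3* (7.25 ± 0.32, WT 4.72 ± 0.17), the WNT effector *Lef1* (6.80 ± 0.46, WT 5.12 ± 0.27) and the RNA-binding *Lin28b* (3.83 ± 0.18, WT 2.57 ± 0.12) rose more in QKO. All 4 were lower than WT in QKO mES cells and not called in EpiLCs. With WT replicates 1 to 4 alone the differences of *Lef1* (0.15) and *Lin28b* (0.94) were not called. That of *Lef1* was also lost in a test against a fold of 1.5. *Grhl2*, an epithelial factor, was the exception that rose less (2.73 ± 0.12, WT 4.63 ± 0.09), and it stood at 20.4 ± 1.99 CPM in QKO mES cells against 3.46 ± 0.547 CPM in WT. *Otx2* rose from 8.20 ± 1.63 to 166 ± 4.54 CPM (4.34 ± 0.38), and how that compares with WT turned on the WT libraries, the difference being 1.47 against WT replicates 1 to 4 and -1.0 with the set of 5 to 8.

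FGF signals drive this step through the MEK and ERK kinases, which the naive medium blocks. Of 20 FGF receptor and ERK feedback genes 10 rose in QKO and 0 fell (median 0.81), against 8 and 0 in WT (median 0.77). *Fgfr2* (ENSMUSG00000030849.19, chromosome 7, 129764181 to 132725079), an FGF receptor of primitive endoderm and trophectoderm, had 0.552, 0.383, 0.314 and 0.549 CPM in the naive QKO wells and 11.9, 11.2, 13.5 and 11.5 CPM in QKO EpiLCs. WT libraries had 7.43 to 10.3 CPM (median 8.86) in mES cells and 7.0 to 11.7 CPM (median 8.87) in EpiLCs. QKO mES cells thus lay far below all others, and the QKO rise (4.71 ± 0.23, WT 0.04 ± 0.12, difference 4.67 ± 0.26) ended near the WT level. Exons of *Ctbp2* on the same strand cover 3.04% of its exon length. *Fgfr4* rose too, from 1.92 ± 0.283 to 4.99 ± 0.861 CPM (1.38 ± 0.21, WT -0.44 ± 0.15), and was above WT in EpiLCs. The ERK phosphatase *Dusp4* rose from 2.07 ± 0.659 to 292 ± 32.8 CPM in QKO, past the 121 ± 27.7 CPM of WT EpiLCs (difference 2.73 ± 0.48), and *Dusp6* rose alike in both (4.30 ± 0.35 and 4.06 ± 0.24). Of 13 tested Nodal and Activin genes 3 rose and 1 fell in QKO, against 5 and 0 in WT, and the Nodal antagonist *Lefty1* rose more in QKO (4.12 ± 0.37, WT 1.89 ± 0.23).

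Several WNT ligands rose more in QKO than in WT. Of 9 tested ligands 6 rose and 2 fell in QKO, against 3 and 1 in WT, and 5 had a higher QKO passage. *Wnt5a* (ENSMUSG00000021994.16, chromosome 14, 28226707 to 28249405), a ligand of the noncanonical branch, had 0, 0.0383, 0 and 0.0343 CPM in the QKO mES libraries, 2 reads in all, and 2.77, 3.07, 3.57 and 2.38 CPM in the QKO EpiLC libraries. In WT it ran from 0.158 to 0.805 CPM (median 0.490) in mES cells and from 0.291 to 0.764 CPM (median 0.480) in EpiLCs. QKO was below every WT library at the first stage and above every one at the second, and the WT change was 0.02 ± 0.28. The QKO ratio was 163 (44.9 to 1353), with an interaction of 7.08 ± 0.69. *Wnt6* (3.18 ± 0.36, WT -0.63 ± 0.23), *Wnt8a* (5.29 ± 0.54, WT 1.83 ± 0.35), *Wnt10a* (3.32 ± 0.50, WT 0.96 ± 0.40) and *Wnt7b* (2.43 ± 0.43, WT 0.61 ± 0.26) rose as well, all with called differences. Those of *Wnt8a* (1.71) and *Wnt10a* (2.05) were lost with WT replicates 1 to 4 alone. *Ror1*, a receptor of *Wnt5a*, was among the 8 genes with the highest interaction in the whole table (5.97 ± 0.63), at 0.0714 ± 0.0526 CPM in the naive QKO wells and 28.7 ± 0.966 CPM in QKO EpiLCs. Over the list of 22 WNT ligands and targets 10 rose and 10 fell in QKO, against 7 and 9 in WT, and 7 had a higher and 2 a lower QKO passage. The fallers held targets of the canonical branch, which CHIR-99021 keeps active in naive medium, with *Axin2* at -2.19 ± 0.25 (WT -2.26 ± 0.17). The difference of *Axin2* turned on the WT libraries, at -0.85 with replicates 1 to 4 alone and 0.68 with 5 to 8 alone, neither past 2-fold. *Sp5*, another target of that branch, was at -6.23 ± 0.69 (WT -8.95 ± 0.52, difference 2.72 ± 1.38, called only with WT replicates 5 to 8 alone at 3.14, and with a replicate block or DESeq2 at 2.86). *Sfrp1*, a secreted antagonist, and *Fzd5*, a receptor, fell further in QKO (differences -1.32 ± 0.17 and -1.19 ± 0.14).

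Of 10 LIF and STAT3 genes 5 fell and 1 rose in QKO, against 6 and 0 in WT. *Socs3*, the feedback inhibitor that LIF induces, fell from 109 ± 5.77 to 3.67 ± 0.638 CPM (-4.89 ± 0.25, WT -4.51 ± 0.17). *Lifr*, the LIF receptor, kept more of its RNA in QKO, from 223 ± 7.12 CPM before to 119 ± 7.39 CPM after the passage (-0.90 ± 0.11), than in WT, where it fell from 172 ± 19.7 to 31.4 ± 3.89 CPM (difference 1.55 ± 0.14).

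**Figure D3:**
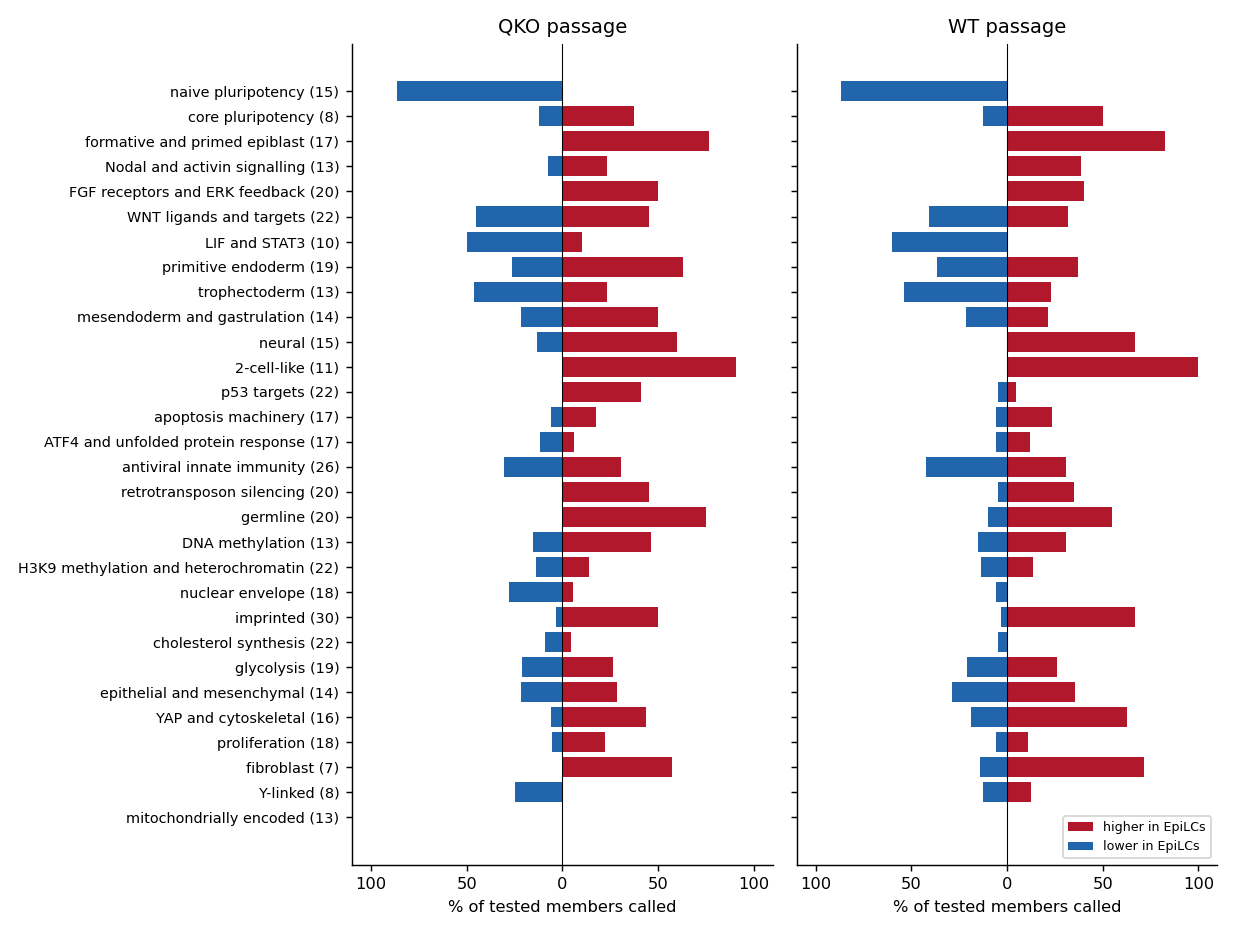
Share of the tested members of each gene list that rose (red, to the right) or fell (blue, to the left) in the QKO passage and in the WT passage, in percent, with the number of tested members in brackets. Most naive genes fell and most primed, 2-cell-like and germline genes rose in both, while bars of p53 targets, primitive endoderm and mesendoderm reach further to the right in QKO.

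Genes of other lineages moved in both passages, and some moved further in QKO. Of 19 tested primitive endoderm genes, the lineage beside the epiblast, 12 rose and 5 fell in QKO (median 1.38), against 7 and 7 in WT (median 0.03), and 8 had a higher and 1 a lower QKO passage. Over all tested genes 17.7% rose and 12.6% fell in QKO, and 6.94% had a higher and 5.69% a lower QKO passage. *Gata6* (ENSMUSG00000005836.11, chromosome 18, 11052064 to 11085635), a GATA factor that heads this lineage, had 0.325, 0.421, 0.353 and 0.309 CPM in the naive QKO wells and 3.10, 3.10, 3.47 and 1.93 CPM in QKO EpiLCs. WT had 0.109 to 0.506 CPM (median 0.238) in mES cells and 0.247 to 0.547 CPM (median 0.353) in EpiLCs. The QKO EpiLC libraries stood above all 4 QKO mES and all 16 WT libraries, and *Gata6* rose in QKO (3.03 ± 0.36, edgeR adjusted p = 1.15e-09) with 0.45 ± 0.27 in WT, a difference of 2.58 ± 0.45. *Gata4* rose from 1.86 ± 0.327 to 4.83 ± 0.795 CPM, up to the 5.46 ± 0.844 CPM of WT EpiLCs. *Pdgfra*, a surface marker of the lineage, had 1.45 ± 0.375 and 2.32 ± 0.529 CPM in QKO while it fell in WT (difference 1.76 ± 0.39). *Hnf4a* had 1.84 ± 0.363 and 2.71 ± 0.830 CPM in QKO while it fell in WT from 0.856 ± 0.122 to 0.137 ± 0.0460 CPM (difference 3.21 ± 0.33). *Lama1*, a laminin, fell in both, by less in QKO (-1.44 ± 0.14, WT -3.23 ± 0.10). The summed level of the list went from between 1914 and 2007 CPM to between 788 and 851 CPM in QKO, and in WT from between 1631 and 1904 CPM to between 783 and 977 CPM, and no member was at 0 in every QKO library. In bulk RNA more cells of a type and more RNA per cell cannot be told apart, here or for the lists that follow. *Afp* and *Ttr*, markers of later endoderm, had too few reads to be tested.

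Of 14 tested mesendoderm and gastrulation genes 7 rose and 3 fell in QKO (median 0.77), against 3 and 3 in WT (median 0.01). *Eomes* (ENSMUSG00000032446.15, chromosome 9, 118307280 to 118315200), a T-box factor of trophectoderm and early mesendoderm, had 2.92, 2.26, 2.24 and 2.37 CPM in the naive QKO wells and 20.4, 22.6, 20.8 and 21.8 CPM in QKO EpiLCs, and WT had 6.01 to 7.40 CPM (median 6.73) and 6.87 to 9.5 CPM (median 7.78). QKO libraries lay below WT at the naive stage and above it at the primed stage, with a rise of 3.12 ± 0.13 in QKO, 0.24 ± 0.08 in WT and a difference of 2.88 ± 0.15. *Cer1*, *Mesp1* and *Msgn1* had too few reads to be tested. Of 13 trophectoderm genes 3 rose and 6 fell in QKO, against 3 and 7 in WT. *Tfap2c* fell in both (-4.39 ± 0.18, WT -5.51 ± 0.13), a difference of 1.12 that was 0.87 with WT replicates 5 to 8 alone. *Plet1* had 4.54 ± 0.263 and 4.98 ± 0.475 CPM in QKO but fell in WT from 13.1 ± 2.52 to 1.29 ± 0.398 CPM (difference 3.50 ± 0.26). *Gata2* fell in QKO (-1.43 ± 0.29, WT 0.44 ± 0.20).

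Keratins of simple and stratified epithelia were among the strongest differences. *Krt19* (ENSMUSG00000020911.15, chromosome 11, 100031636 to 100039491) had 0.390, 0.651, 0.903 and 0.309 CPM in the naive QKO wells and 6.52, 6.46, 8.68 and 5.97 CPM in QKO EpiLCs. In WT it went the other way, from 5.86 to 10.2 CPM (median 8.28) in mES cells to 1.91 to 3.13 CPM (median 2.14) in EpiLCs. The 2 genotypes thus traded places, and the passages differed by 5.43 ± 0.28. *Krt17* rose in QKO (3.08 ± 0.39) and fell in WT (-1.47 ± 0.15), and *Krt7* rose in QKO from 0.0626 ± 0.0172 to 1.67 ± 0.179 CPM, near the 2.08 ± 0.124 CPM of WT EpiLCs (difference 4.50 ± 0.61). *Cnn1*, a calponin of smooth muscle, rose less in QKO (2.90 ± 0.30, WT 6.65 ± 0.22). The actin cross-linker *Flna* had 605 ± 11.5 and 749 ± 34.1 CPM in QKO where WT went from 694 ± 55.7 to 1590 ± 148 CPM (difference -0.89 ± 0.11, not past 2-fold). The list of 16 tested YAP and cytoskeletal genes, which holds all 5, had 7 higher and 1 lower in QKO and 10 higher and 3 lower in WT. Of 14 epithelial and mesenchymal genes 4 rose and 3 fell in QKO. *Vim*, vimentin, had 268 ± 9.65 and 220 ± 14.0 CPM in QKO (-0.29 ± 0.11) and fell in WT (-2.05 ± 0.08). *Fn1*, fibronectin, fell further in QKO (-3.31 ± 0.10, WT -1.98 ± 0.07), and *Zeb2*, a repressor of epithelial genes, rose further (4.89 ± 0.47, WT 1.23 ± 0.24).

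Most listed neural genes rose in both passages, 9 of 15 tested in QKO with 2 that fell (median 2.10, or 1.58 with members at 0 in a group set to their bound) and 10 with 0 in WT (median 2.09). *Sox11* (ENSMUSG00000063632.7, chromosome 12, 27384263 to 27392573), a SOX factor of neural and epiblast cells, had 0.942, 0.996, 0.982 and 1.34 CPM in the naive QKO wells and 63.4, 60.0, 57.9 and 58.8 CPM in QKO EpiLCs. WT started higher, at 17.3 to 31.9 CPM (median 23.6), and reached 98.5 to 120 CPM (median 110). QKO lay below WT at both stages in every library, and its rise was the larger (5.81 ± 0.18, WT 2.17 ± 0.09, difference 3.64 ± 0.21). *Neurod1*, a bHLH factor of neurons, rose to 37.7 ± 1.25 CPM in QKO EpiLCs against 10.2 ± 1.25 CPM in WT (difference 2.54 ± 0.16). *Zic1* rose from 1 read to 1.28 ± 0.247 CPM (ratio 142, 25.2 to 5658). The microtubule protein gene *Map2* rose by 1.58 ± 0.19 with a difference of 1.17 that was not called with WT replicates 1 to 4 alone (0.89) or without QKO mES replicate 4 (0.98). *Pou3f2*, a neural POU factor, ran against the list and fell in QKO from 6.38 ± 0.384 to 0.486 ± 0.127 CPM with 0.40 ± 0.22 in WT (difference -4.12 ± 0.39).

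Genes of the germline and of 2-cell-like cells rose in both genotypes. All but 1 of 11 tested 2-cell-like genes rose in QKO (median 3.74) and all 11 in WT (median 3.58), with no called difference. Their summed level stayed low, from between 0 and 0.325 CPM in QKO mES cells to between 2.85 and 3.84 CPM in QKO EpiLCs, against 16.2 to 24.6 CPM in WT EpiLCs. *Zscan4d*, of a family whose copies share reads, went from 2 reads to 0.474 ± 0.285 CPM (ratio 27.6, 7.32 to 233) in QKO and to 3.62 ± 0.743 CPM in WT. *Duxf3*, *Tdpoz1*, *Tdpoz3* and *Tdpoz4* had too few reads to be tested. Of 20 germline genes 15 rose and 0 fell in QKO (median 1.61), against 11 and 2 in WT (median 1.95), and 7 had a higher and 1 a lower QKO passage. *Taf7l*, a testis form of a general transcription factor subunit, rose from 0.342 ± 0.201 to 20.7 ± 0.631 CPM in QKO (5.91 ± 0.27, WT 4.14 ± 0.17). *Slc25a31*, a testis ADP and ATP carrier, rose from 0.684 ± 0.187 to 14.3 ± 2.03 CPM (4.38 ± 0.20, WT 3.18 ± 0.13). *Hormad1* (1.11 ± 0.13, WT -0.71 ± 0.09), a protein of the meiotic chromosome axis, *Sohlh2* (1.16 ± 0.14, WT -0.91 ± 0.10), a bHLH factor of germ cells, and *Tex11* (2.43 ± 0.14, WT 0.83 ± 0.09), needed for meiotic recombination, rose in QKO and were not called as rising in WT, with called differences of 1.61 to 2.06. *Stra8*, which gates entry into meiosis, fell in WT and had 0.240 ± 0.0708 and 0.130 ± 0.0488 CPM in QKO (difference 3.05 ± 0.53). *Tex101* rose less in QKO (difference -1.60 ± 0.47), a call lost in a test against a fold of 1.5. *Ddx4*, *Mael* and *Tdrd1*, of the piRNA pathway that silences TEs in germ cells, rose to 39.3 ± 2.72, 20.2 ± 0.743 and 11.3 ± 0.860 CPM in QKO without a called difference.

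Many germline genes are kept silent in somatic and epiblast cells by repressors that read the E-box CACGTG in their promoters. RefSeq (GRCm38.p6) holds a promoter window, 250 bases before to 50 after the gene start, for 18 of the 20 listed germline genes. CACGTG, its own reverse complement, occurs in 11 of these 18 (61.1%), against 7.24% of all 27025 windows, and the GC box GGGCGG, searched on both strands and able to share 1 base with CACGTG, in 12 (66.7%) against 35.9%. None of the 10 windows of 2-cell-like genes holds either motif. Windows of 3 germline genes that rose more in QKO than in WT are shown to let the motif be seen, with CACGTG in capitals. They lie at chr3:95559427-95559726 (plus strand) for *Hormad1*, with 2 copies of the motif, at chr3:40708621-40708920 (plus strand) for *Slc25a31*, with the motif starting at -93 from the gene start, and at chrX:134476441-134476740 (minus strand) for *Taf7l*, with the motif at -49.
Hormad1: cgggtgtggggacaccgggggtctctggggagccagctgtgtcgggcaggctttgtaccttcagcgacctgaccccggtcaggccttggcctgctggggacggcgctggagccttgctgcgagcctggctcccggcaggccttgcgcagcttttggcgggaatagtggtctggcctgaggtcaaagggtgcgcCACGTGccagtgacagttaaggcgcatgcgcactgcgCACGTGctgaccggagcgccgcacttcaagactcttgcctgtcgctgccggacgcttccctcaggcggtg
Slc25a31: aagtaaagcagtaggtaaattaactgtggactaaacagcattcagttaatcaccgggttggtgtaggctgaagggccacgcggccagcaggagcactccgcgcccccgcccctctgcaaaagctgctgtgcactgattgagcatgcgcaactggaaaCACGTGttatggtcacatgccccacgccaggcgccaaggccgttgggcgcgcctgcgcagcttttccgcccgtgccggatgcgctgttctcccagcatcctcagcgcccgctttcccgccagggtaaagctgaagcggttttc
Taf7l: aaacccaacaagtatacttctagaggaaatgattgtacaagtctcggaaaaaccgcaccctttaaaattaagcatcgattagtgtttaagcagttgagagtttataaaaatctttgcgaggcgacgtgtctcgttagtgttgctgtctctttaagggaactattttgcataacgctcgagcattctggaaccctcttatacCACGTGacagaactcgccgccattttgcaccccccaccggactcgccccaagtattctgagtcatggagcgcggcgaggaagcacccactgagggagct
The motif is a description of these windows. The other 7 of the 18 hold none, among them those of *Sohlh2* and *Stra8*, which had higher QKO passages too, and of *Tex101*, which had a lower one.

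Some genes that silence TEs rose as well. Of 20 retrotransposon silencing genes, which share 4 members with the germline list, 9 rose and 0 fell in QKO (median 0.79), against 7 and 1 in WT (median 0.37). *Morc1* (ENSMUSG00000022652.8, chromosome 16, 48251600 to 48451263), a repressor of TEs in male germ cells, had 182, 167, 164 and 169 CPM in the naive QKO wells and 91.9, 90.3, 93.7 and 97.0 CPM in QKO EpiLCs, while WT went from 159 to 192 CPM (median 177) down to 22.3 to 25.4 CPM (median 24.9). The mES libraries of both genotypes overlapped and the EpiLC libraries did not, so that the passages differed by 1.98 ± 0.08 (QKO -0.87 ± 0.07, WT -2.85 ± 0.05). *Tex19.1*, which restrains LINE-1 elements, rose in QKO (1.21 ± 0.17, WT -0.62 ± 0.12), as did *Mov10l1*, a helicase of the piRNA pathway (3.37 ± 0.18, WT 2.2 ± 0.11). *Setdb1*, the H3K9 methyltransferase of TE silencing, had 265 ± 10.1 CPM in the naive QKO wells and 157 ± 8.93 CPM in QKO EpiLCs (-0.76 ± 0.07) with 0.29 ± 0.05 in WT. The difference of -1.05 ± 0.08 was short of 2-fold with WT replicates 5 to 8 alone (-0.99) and with no filter on low counts (-0.92). Of 13 DNA methylation genes 6 rose and 2 fell in QKO, against 4 and 2 in WT, and of 22 tested genes of H3K9 methylation and heterochromatin 3 rose and 3 fell in each.

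Some p53 targets rose in QKO that were not called in WT. Of 22, 9 rose and 0 fell in QKO (median 0.72), against 1 and 1 in WT (median 0.03), and 7 had a higher and 0 a lower QKO passage while 15 had no called difference, beside 6.94% and 5.69% of all genes with a higher and a lower one. *Cdkn1a* (ENSMUSG00000023067.15, chromosome 17, 29309950 to 29319701), which encodes the cell cycle inhibitor p21, had 176, 184, 168 and 164 CPM in the naive QKO wells and 136, 133, 152 and 143 CPM in QKO EpiLCs. WT went from 218 to 266 CPM (median 225) down to 46.3 to 83.7 CPM (median 54.5). QKO mES libraries lay below all WT ones and QKO EpiLC libraries above all WT ones. The QKO change was -0.29 ± 0.11, not past 2-fold, against a fall of -2.01 ± 0.08 in WT, a difference of 1.71 ± 0.13 (edgeR adjusted p = 5.96e-14). *Mdm2* (ENSMUSG00000020184.16, chromosome 10, 117524780 to 117546663), the ubiquitin ligase that holds p53 down, had 128, 132, 122 and 119 CPM in the naive QKO wells and 316, 308, 323 and 316 CPM in QKO EpiLCs, with 103 to 136 CPM (median 127) and 110 to 150 CPM (median 122) in WT. QKO EpiLCs stood apart from the other 3 groups, with a rise of 1.33 ± 0.09 and a difference of 1.29 ± 0.11. *Eda2r* (ENSMUSG00000034457.11, chromosome X, 96377446 to 96420822), a receptor of the TNF family, had 43.8, 45.9, 43.9 and 44.3 CPM in the naive QKO wells and 134, 136, 138 and 141 CPM in QKO EpiLCs, where WT held 48.1 to 63.0 CPM (median 54.4) and 48.0 to 64.3 CPM (median 57.2). It too was apart in QKO EpiLCs alone (difference 1.56 ± 0.13).

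*Ccng1* (1.04 ± 0.06), *Btg2* (1.2 ± 0.09) and *Perp* (2.05 ± 0.12), which act in growth arrest and cell death, rose in QKO with called differences of 1.03 ± 0.08, 1.55 ± 0.11 and 1.43 ± 0.15. *Ccng1* was at the threshold, with 1.00 in QKO without mES replicate 3 and a difference of 0.97 with WT replicates 5 to 8 alone. *Trp53inp1* had a called difference (1.10 ± 0.15) though its QKO change of 0.61 ± 0.12 was not past 2-fold. *Zmat3* (1.16 ± 0.10), *Fas* (2.16 ± 0.61, to 0.500 ± 0.186 CPM) and *Bbc3* (1.14 ± 0.18, or 1.00 without mES replicate 3) rose in QKO without a called difference, as did *Pmaip1*, which encodes NOXA, in both (6.34 ± 0.15, WT 6.11 ± 0.10). *Trp53* itself had 445 ± 18.1 and 444 ± 32.8 CPM in QKO (-0.00 ± 0.11) and -0.61 ± 0.08 in WT. Of 17 tested apoptosis genes 3 rose and 1 fell in QKO, against 4 and 1 in WT. *Bcl2*, which guards against cell death, rose less in QKO, to 1.14 ± 0.453 CPM against 4.32 ± 0.398 CPM in WT EpiLCs (difference -1.53 ± 0.40). *Bcl2l11*, which encodes BIM, rose in both (3.02 ± 0.11, WT 2.57 ± 0.08). In a list of 17 ATF4 and unfolded protein response genes 1 rose and 2 fell in QKO, against 2 and 1 in WT. The 3 called differences were all lower in QKO, at *Asns* (-1.29 ± 0.10), *Trib3* (-1.22 ± 0.12) and *Chac1* (-1.44 ± 0.16).

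**Figure D4:**
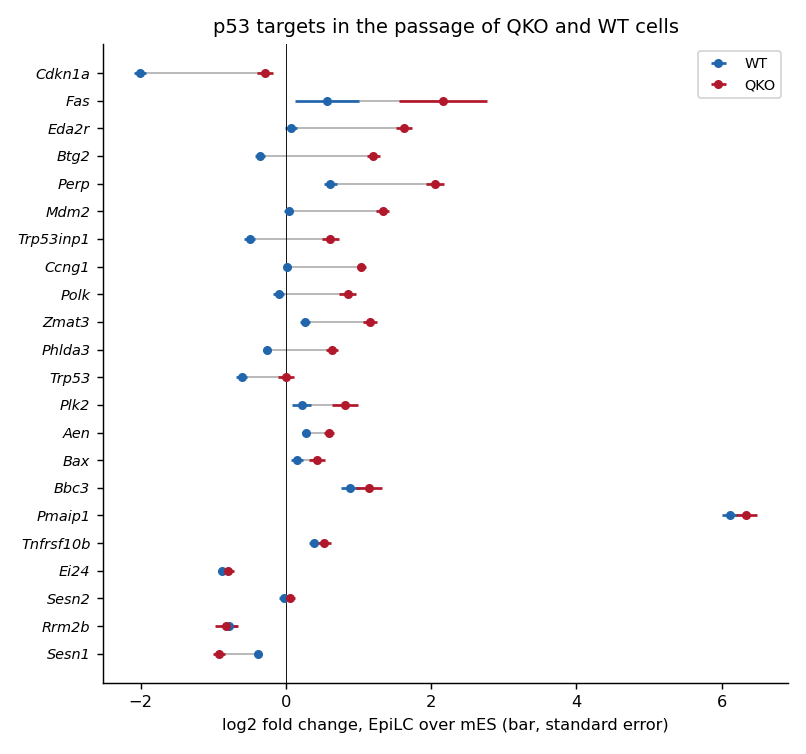
Log2 fold change of EpiLCs over mES cells (points, with bars for 1 standard error) for the 22 listed p53 targets in WT (blue) and QKO (red), ordered by the gap between them. Cdkn1a at the top moves from -2.01 in WT to -0.29 in QKO, Mdm2 and Eda2r lie near 0 in WT and at 1.33 and 1.63 in QKO, and Pmaip1 is above 6 in both.

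Antiviral genes went both ways. Of 26 tested, 8 rose and 8 fell in QKO (median -0.39), against 8 and 11 in WT (median -0.76), and 10 had a higher and 1 a lower QKO passage. *Rsad2*, which encodes viperin, rose from 1 read to 3.12 ± 0.536 CPM in QKO (ratio 348, 62.1 to 13778) and from 0.316 ± 0.130 to 2.21 ± 0.454 CPM in WT. *Zbp1*, a sensor of Z-form nucleic acid, rose in QKO from 0.110 ± 0.0964 to 0.816 ± 0.318 CPM (2.89 ± 0.44, WT -0.73 ± 0.24). *Bst2*, tetherin, rose in both (2.35 ± 0.18, WT 1.33 ± 0.12, difference 1.02, or 0.87 with WT replicates 5 to 8 alone and 0.99 without QKO EpiLC replicate 3 or mES replicate 4). *Eif2ak2*, which encodes the kinase PKR, fell in WT (-1.71 ± 0.06) but had -0.57 ± 0.08 in QKO. *Oas1a* fell in both (-5.32 ± 0.17, WT -5.68 ± 0.13), and *Ddx60*, with -0.66 ± 0.25 in QKO and a rise of 1.61 ± 0.18 in WT, was the one lower difference. *Ifit3*, *Mx1*, *Mx2* and *Usp18* had too few reads to be tested.

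Imprinted genes, which are read from one parental copy, moved unevenly. Of 30 measured, 15 rose and 1 fell in QKO (median 0.96), against 20 and 1 in WT (median 1.30), with 5 higher and 5 lower QKO passages. *Peg3* (ENSMUSG00000002265.18, chromosome 7, 6706891 to 6733430), a paternally read zinc finger gene, had 54.2, 54.9, 56.2 and 53.6 CPM in the naive QKO wells and 466, 427, 420 and 446 CPM in QKO EpiLCs, next to 97.3 to 119 CPM (median 110) and 142 to 165 CPM (median 153) in WT. QKO started below every WT library and ended above every one (3.01 ± 0.08, WT 0.48 ± 0.05, difference 2.52 ± 0.09). Its neighbour *Usp29* went the same way (2.82 ± 0.21, WT 0.52 ± 0.14), and *Peg10* (3.58 ± 0.33, WT 1.54 ± 0.21) and the noncoding *H19* (6.80 ± 0.41, WT 3.90 ± 0.23) rose further in QKO, *Peg10* by 0.94, not called, with WT replicates 1 to 4 alone. On the other side *Grb10* (0.28 ± 0.07, WT 1.93 ± 0.05), *Dlk1* (3.18 ± 0.32, WT 5.25 ± 0.24) and the noncoding *Rian* (0.04 ± 0.14, WT 1.12 ± 0.10) had lower QKO passages, and *Plagl1* fell further (-5.42 ± 0.13, WT -4.19 ± 0.09). The difference of *Rian* was -0.95 and not called with no filter on low counts.

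Of 18 nuclear envelope genes 1 rose and 5 fell in QKO, against 0 and 1 in WT. These small lists are to be read beside the 17.7% of all tested genes that rose and the 12.6% that fell in QKO. The riser was *Syne1*, which encodes the linker protein nesprin-1 (1.75 ± 0.18, WT 0.04 ± 0.12), and *Sun1*, its partner in the inner membrane, fell in QKO from 188 ± 8.01 to 80.2 ± 7.28 CPM (-1.23 ± 0.06), with -0.90 ± 0.04 in WT and no called difference. Cholesterol synthesis genes, of interest because LBR is also a sterol reductase, showed 1 higher and 2 lower of 22 and no called difference. Of 18 proliferation genes 4 rose and 1 fell, and *Ccnd2*, cyclin D2, rose from 0.185 ± 0.152 to 12.1 ± 1.21 CPM (difference 2.22 ± 0.65, or 0.72 with WT replicates 1 to 4 alone). Of 19 glycolysis genes 5 rose and 4 fell in each genotype, and *Slc2a3*, a glucose transporter, fell further in QKO (difference -1.19 ± 0.20, or -0.75 with WT replicates 5 to 8 alone). None of 13 mitochondrially encoded genes was called by edgeR in either passage. Of 7 tested fibroblast genes 4 rose in QKO and 5 in WT, with summed levels of 12.1 to 13.2 CPM in QKO EpiLCs, and *Thy1* rose less in QKO (difference -1.33 ± 0.24). *Lum* and *Postn* had too few reads to be tested. Of 8 Y-linked genes *Kdm5d* and *Uba1y* fell in QKO (-1.12 ± 0.21 and -2.21 ± 0.12), where QKO mES cells held 19.3 ± 1.5 and 73.0 ± 0.646 CPM against 0.449 ± 0.169 and 4.92 ± 0.588 CPM in WT. For each list with 0 genes or families called in a direction, the count at an unadjusted p under 0.05 and the 2-fold limit was also 0, as was that of DESeq2.

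The genes named for the highest interaction were all lower in QKO mES cells than in WT mES cells. *Kcnh8*, a potassium channel, had no read in QKO mES cells and 4.16 ± 0.414 CPM in QKO EpiLCs (at least 155-fold higher), while WT went from 1.87 ± 0.727 to 5.08 ± 1.53 CPM. *Tal1*, a bHLH factor of blood formation, rose from 1 read to 6.35 ± 0.669 CPM (ratio 704, 126 to 27837) next to 1.24 ± 0.209 and 3.83 ± 0.618 CPM in WT. *Tgfbi*, an extracellular matrix protein that TGF-beta induces (4.20 ± 0.24, WT -1.47 ± 0.14), *Mir142hg*, a host gene of a blood cell miRNA (2.66 ± 0.27, WT -2.28 ± 0.19), and *Gfra2*, a receptor of neurturin (1.76 ± 0.36, WT -3.03 ± 0.20), rose in QKO and fell in WT. At the low end stood genes that QKO mES cells held and WT mES cells nearly lacked. *Stk33*, a kinase, fell in QKO from 7.28 ± 0.787 to 0.0444 ± 0.0547 CPM, *Tmem132d* from 16.5 ± 0.352 to 0.340 ± 0.0560 CPM and *Akr1c18*, a steroid reductase, from 7.94 ± 0.748 to 0.142 ± 0.122 CPM, with 0.0703, 0.575 and 0.129 CPM in WT mES cells. *Tdpoz8*, of a family of near copies, fell in QKO (-4.36 ± 0.55) and rose in WT (3.23 ± 0.40). The glycoprotein folding enzyme *Uggt2* (-1.13 ± 0.14, WT 3.82 ± 0.12) and the nucleotidase *Nt5e* (-1.70 ± 0.47, WT 1.80 ± 0.29) did the same. *Prom2* (3.28 ± 0.38, WT 8.56 ± 0.36), *Aadat* (6.47 ± 0.23, difference -4.41 ± 0.60) and *Tmem54* (8.38 ± 0.30, difference -4.40 ± 1.05) rose less in QKO than in WT, where *Aadat* began at 1 read and *Tmem54* at none.

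TEs took a larger share of counts in QKO than in WT, and no change of that share in the QKO passage passed the test with all libraries. With 4 libraries a stage, full separation of a class did not suffice after adjustment, as SINEs below show. The lack of a call is therefore no sign that the shares stayed the same. Of the reads in the table of genes and TE families, in which a read with several alignments is divided over its copies, 12.6% ± 1.00 lay on TEs in QKO mES cells (11.3 to 13.8%) and 13.9% ± 0.299 in QKO EpiLCs (13.5 to 14.3%). The difference of 1.26 percentage points was not past the threshold (two-sided exact permutation test, p = 0.0571, adjusted over 8 tests 0.114). Shares were 7.60% ± 0.966 and 8.51% ± 0.985 in WT (exact permutation p = 0.0813). SINEs went from 5.25% ± 0.442 to 6.09% ± 0.235 in QKO with all EpiLC libraries above all mES libraries (exact permutation p = 0.0286, the smallest that 4 against 4 can give, adjusted 0.114). LINEs went from 2.36% ± 0.214 to 2.65% ± 0.120 and LTR elements from 3.29% ± 0.270 to 3.61% ± 0.115 (exact permutation p = 0.0857 each). Without QKO mES replicate 3 the gains were 1.64 points for all TEs, 0.388 for LINEs, 0.997 for SINEs and 0.437 for LTR elements, each with an adjusted exact p of 0.0457. In WT LTR elements gained 0.48 points (exact permutation p = 0.00373, adjusted 0.0298), a call lost with WT replicates 1 to 4 alone (0.581 points, exact permutation, adjusted p = 0.0762) and 5 to 8 alone (0.38 points, adjusted p = 0.229).

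Of 1142 TE families 36 rose (3.15%) and 38 fell (3.33%) in QKO, 6.48% in all, against 27 (2.36%) and 25 (2.19%) in WT, 4.55% in all, and the median family stood at 0.19 in QKO and 0.15 in WT. By class, 20 LTR families rose and 35 fell of 603, 2 LINE families rose and 1 fell of 189, 9 DNA transposon families rose and 2 fell of 273, and 3 of 7 satellites rose. The passages differed for 6 families with a higher QKO passage (0.525%) and 17 with a lower one (1.49%), 2.01% in all. The 6 were 3 with DESeq2, RLE size factors, no filter or without QKO mES replicate 2, and 2 with scaling from genes alone or a test against a fold of 1.5. Whatever the fold, the libraries of the QKO stages did not overlap for 19.4% of families with EpiLCs higher and 8.76% with EpiLCs lower, and those of WT, with 8 libraries a stage, for 0.963% and 2.8%. Log2 fold changes of the 2 passages had a Pearson r of 0.63 over the 1142 families.

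Of the 6 families that fell furthest in QKO at 1 CPM or more, 5 were endogenous retroviruses of the ERVK class and 1 was a LINE-1 family. RLTR45-int, the internal part of such an element, had 1043, 1097, 1130 and 1103 CPM in the naive QKO wells and 41.6, 38.0, 35.4 and 42.0 CPM in QKO EpiLCs. WT libraries held 39.5 to 63.8 CPM (median 48.7) in mES cells and 13.5 to 21.7 CPM (median 15) in EpiLCs. The QKO mES level thus lay above every other QKO and WT library and the QKO EpiLC level still above every WT EpiLC library. The fall was -4.80 ± 0.17 in QKO and -1.65 ± 0.11 in WT, a difference of -3.15 ± 0.18. ERVB4_2-I_MM had 164, 187, 191 and 164 CPM in the naive QKO wells and 10.1, 11.3, 9.76 and 8.16 CPM in QKO EpiLCs, while WT went from 8.85 to 14.2 CPM (median 11.8) to 4.08 to 6.18 CPM (median 5.67). QKO EpiLCs came down to about the range of WT mES cells (-4.16 ± 0.14, WT -1.07 ± 0.10, difference -3.09 ± 0.16). Its long terminal repeat ERVB4_2-LTR_MM (-3.66 ± 0.50) and the internal part ERVB4_3-I_MM (-3.33 ± 0.30, from 12.7 ± 1.08 to 1.25 ± 0.395 CPM) fell with it, with differences of -2.57 ± 0.59 and -3.58 ± 0.37. RLTR45-int, ERVB4_2-I_MM and ERVB4_3-I_MM are families that the study names. In a list of 10 tested families with names in RLTR45 or ERVB4, which was built around those names and so is no independent evidence of a direction, 5 fell and 0 rose in QKO (median -1.04), against 3 and 0 in WT (median 0.01), and 6 had a lower QKO passage.

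Further families fell with them. RLTR13B2 fell in both (-3.41 ± 0.19, WT -2.48 ± 0.13), and ETnERV3-int fell in QKO from 79.8 ± 4.21 to 13.9 ± 1.31 CPM (-2.52 ± 0.18, difference -2.04 ± 0.22). The old LINE-1 family L1M3a fell from 4.17 ± 1.44 to 0.407 ± 0.201 CPM (difference -2.93 ± 0.52). RLTR13C2 passed as well (-2.19 ± 0.86), but its 126 ± 148 CPM in QKO mES cells rest on replicate 1. WT EpiLCs were as uneven, at 40.2 ± 78.1 CPM. Without that QKO library its change was -0.94 (edgeR adjusted p = 0.375), and its call was lost without any single QKO EpiLC library too (-2.15 to -2.23). Its difference of -3.40 ± 1.05 was -2.10 without QKO mES replicate 1, -1.67 with WT replicates 5 to 8 alone and -1.53 with a replicate block, none of them called. A list of 45 tested families matched on gammaretroviral names had 1 higher and 6 lower in QKO and 0 and 6 in WT. The match also took in ERVK families, among them RLTR46A2, its riser, and the RLTR45 families counted above. RLTR45-int is thus among its fallers, and the counts do not measure gammaretroviral families alone. Of 25 IAP families, young ERVK elements that are active in mice, 4 fell and 0 rose in QKO, against 2 and 0 in WT. IAP1-MM_I moved the other way, with 14.4, 14.1, 15.7 and 16.1 CPM in the naive QKO wells and 30.4, 29.4, 27.0 and 30.1 CPM in QKO EpiLCs. Its QKO EpiLC libraries lay above all QKO mES and WT libraries, and though its change (0.96 ± 0.14) was just short of 2-fold, it differed from the WT change of -0.35 ± 0.10 by 1.31 ± 0.17.

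**Figure D5:**
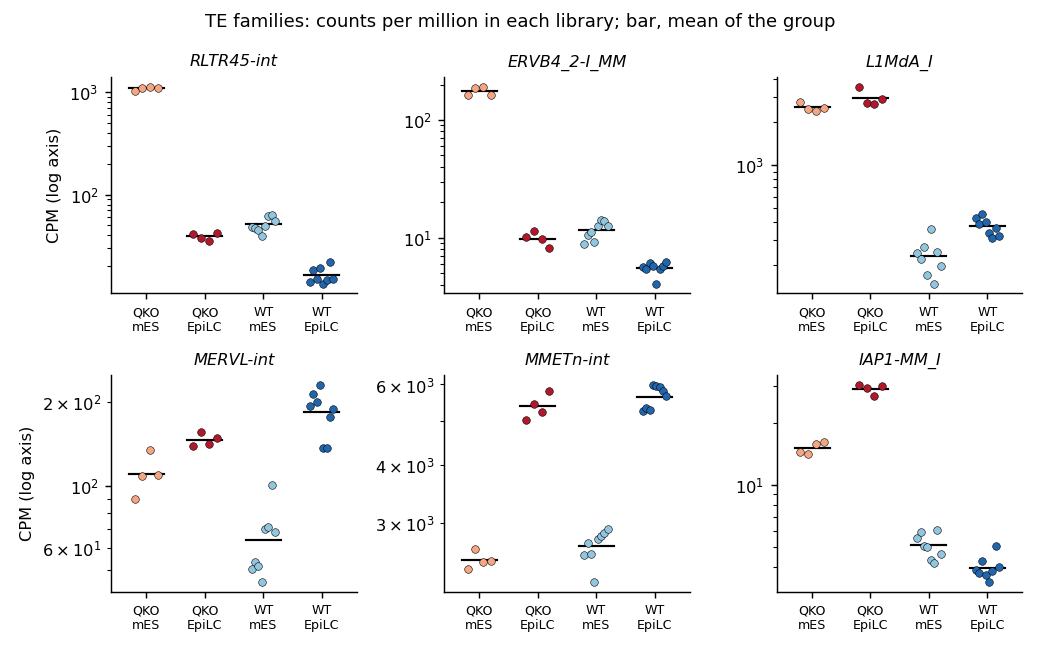
CPM on a log axis of 6 TE families in each library (points) with the group mean (bars), in QKO mES cells (n = 4), QKO EpiLCs (n = 4), WT mES cells (n = 8) and WT EpiLCs (n = 8). RLTR45-int and ERVB4_2-I_MM drop in QKO from far above WT, L1MdA_I is high at both QKO stages, MERVL-int climbs more in WT, MMETn-int climbs alike in both, and IAP1-MM_I is highest in QKO EpiLCs.

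Young LINE-1 elements, the autonomous retrotransposons still active in mice, were high in QKO at both stages and showed no called change. L1MdA_I had 2762, 2479, 2398 and 2523 CPM in the naive QKO wells and 3517, 2698, 2669 and 2900 CPM in QKO EpiLCs, next to 148 to 356 CPM (median 231) and 308 to 453 CPM (median 375) in WT. The stages overlapped in both genotypes, while every QKO library was above every WT library. The change was 0.21 ± 0.17 in QKO and 0.70 ± 0.12 in WT, and L1MdTf_I was at 0.15 ± 0.14 in QKO. Over 8 young LINE-1 families 0 rose and 0 fell in either passage by edgeR (medians 0.23 and 0.43). The same held for 13 families of SINE B1 and B2 (medians 0.26 and 0.16) and 29 of ERVL-MaLR (0.15 and 0.10). MERVL-int, the retrovirus of 2-cell embryos, had 90.0, 109, 134 and 110 CPM in the naive QKO wells and 140, 156, 141 and 149 CPM in QKO EpiLCs. WT climbed from 45.4 to 101 CPM (median 60.9) to 137 to 230 CPM (median 192), so that WT passed QKO on average though the EpiLC libraries of the 2 genotypes overlapped. The QKO change was 0.40 ± 0.18 against a rise of 1.53 ± 0.13 in WT (difference -1.12 ± 0.23, or -0.60 and not past 2-fold with WT replicates 5 to 8 alone, which hold the WT mES library that stood apart). The difference was also just short of 2-fold without QKO mES replicate 3 (-0.99).

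Among families that rose in QKO, MMETn-int and ETnERV-int, of the young ETn and MusD elements, changed by a like amount in WT. MMETn-int had 2382, 2624, 2458 and 2471 CPM in the naive QKO wells and 5030, 5450, 5235 and 5806 CPM in QKO EpiLCs, and WT went from 2229 to 2905 CPM (median 2735) to 5248 to 5974 CPM (median 5727). Stages were apart and genotypes overlapped (1.12 ± 0.07, WT 1.08 ± 0.05, difference 0.04 ± 0.09). ETnERV-int rose by 1.10 ± 0.06 in QKO with 0.96 ± 0.04, just short of 2-fold, in WT. The major satellite GSAT_MM, the repeat of mouse pericentromeres, had 2.69, 3.33, 3.19 and 4.21 CPM in the naive QKO wells and 13.1, 8.38, 6.90 and 9.17 CPM in QKO EpiLCs. Its QKO stages did not overlap, and it rose by 1.48 ± 0.23 with 0.66 ± 0.17 in WT (2.09 to 3.51 CPM, median 2.65, and 3.10 to 5.6 CPM, median 4.49), without a called difference (0.82 ± 0.28). A second satellite, SYNREP_MM, rose in both (1.78 ± 0.41, WT 1.68 ± 0.30). MamTip1 (1.80 ± 0.34, WT 2.09 ± 0.24), HERVL74-int (1.35 ± 0.20, WT 0.33 ± 0.14), UCON8 (1.25 ± 0.37) and RLTR46A2 (1.25 ± 0.34) complete the highest risers at 1 CPM or more. Higher QKO passages were called for HERVL74-int (1.02 ± 0.24), UCON41 (2.27 ± 0.25), MamGyp-int (1.08 ± 0.36) and RLTR27 (1.01 ± 0.23). Of these UCON41, which fell in WT from 2.30 ± 0.53 to 0.628 ± 0.185 CPM and had 2.98 ± 0.309 and 3.91 ± 0.357 CPM in QKO, passed under every setting tried. The other 3 were close to the 2-fold limit and also lost their calls in a test against a fold of 1.5. HERVL74-int lost its call with DESeq2 or RLE size factors (0.97), no filter (0.93), scaling from genes alone (0.94), and without QKO EpiLC replicate 2 (0.91) or mES replicate 1 (0.93). MamGyp-int lost it with no filter or scaling from genes alone (0.99) and without QKO EpiLC replicate 1 (0.97) or mES replicate 2 (0.98). RLTR27 lost it with DESeq2 or RLE size factors (0.96), no filter (0.92), scaling from genes alone (0.93), WT replicates 1 to 4 alone (0.97), and without QKO EpiLC replicate 4 or mES replicate 1 (0.98 each) or mES replicate 2 (0.99).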

How the data were processed

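Total RNA of 40 wells, depleted of ribosomal RNA, was sequenced, and the 24 QKO and WT libraries are described here. The authors trimmed reads (cutadapt 2.5), aligned them to GRCm39 (STAR 2.7.10a, SAMtools 1.10) and deposited whole-number counts per gene (featureCounts 1.6.4, single alignments, GENCODE M30) and a second table of counts per gene and TE family in which TEcount divided reads with several alignments. The sources used here give no strand setting.

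Counts were fitted with edgeR 4.0.16 (R 4.3.3, TMM, quasi-likelihood test, filterByExpr over the 8 groups) on all 40 libraries. Adjusted p-values (Benjamini-Hochberg) run over all genes, or over all genes and TE families, and called means under 0.05 and over 2-fold. TE shares were tested by exact permutation (scipy 1.17.1). Counts of 23399 genes were simulated with a subset, all of at least 1 CPM, changed in QKO EpiLCs and nothing else changed. In the QKO passage 94.0% of those changed 3-fold and 100.0% of those changed 8-fold were recovered. In the interaction 93.0% and 97.0% were. Recovery of genes near 0 reads was not tested. Genes were named from lists, and by size among called genes of at least 5 CPM (12 highest and lowest in QKO without overlap of libraries, 8 by interaction, 4 in opposite directions, with 2 of the genes so chosen or listed not reported here) or TE families of at least 1 CPM (6, 5 and 3). The members and lists were chosen with earlier results of these data known. The stage comparison was added after the data were seen. Alternatives were DESeq2 1.42.0, RLE factors, no filter, a test against a fold of 1.5, other sets of libraries, each QKO library left out, the other counting, scaling from genes alone and a replicate block. Deviations of same-numbered libraries correlated at 0.51, -0.04, 0.05 and -0.16 in QKO, where numbers do not pair wells. In WT they correlated at 0.11 to 0.63 and met the rule for pairing. The main fits left WT libraries unpaired and the replicate block paired same-numbered ones. The tests of TE shares had no paired alternative, so their WT p-values leave the pairing aside.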

Additional observations from a re-analysis of the deposited data

Results flagged for a closer look

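In 9 of 108 groups of libraries, 1 library lay far from the rest by Dixon's gap test, which flags about 1 in 20 groups by chance. QKO mES replicate 4 was highest in *Fgf5* (0.0343 CPM, its single read) and in *Sox11* (1.34 CPM). WT EpiLC replicate 7 was highest in *Cdkn1a* (83.7 CPM), and WT EpiLC replicate 5 was lowest in ERVB4_2-I_MM (4.08 CPM). WT mES replicate 7 was highest in MERVL-int (101 CPM) and in the share of counts on all TEs (9.87%), LINEs (1.59%), SINEs (4.16%) and LTR elements (2.5%).

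The log2 fold change of the QKO passage minus that of the WT passage passed the edgeR interaction test for 126 named genes and TE families, given here as log2 differences. For genes with few or no reads in a group, such as *Fgf5*, *Wnt5a*, *Kcnh8* and *Tal1*, the size of the difference is poorly fixed. In the naive, core and primed circuits the differences were those of *Nanog* (-1.42), *Esrrb* (1.6), *Nr0b1* (2.43), *Dppa3* (2.52), *Sox2* (1.15), *Cripto* (-1.87), *Fgf5* (3.29), *Pou3f1* (1.55), *Sox3* (2.53), *Lef1* (1.68), *Grhl2* (-1.90) and *Lin28b* (1.25). Among signalling genes the differences were those of *Wnt5a* (7.08), *Wnt6* (3.81), *Wnt8a* (3.46), *Wnt10a* (2.36), *Wnt7b* (1.82), *Ror1* (5.97), *Sfrp1* (-1.32), *Fzd5* (-1.19), *Fgfr2* (4.67), *Fgfr4* (1.82), *Dusp4* (2.73), *Lefty1* (2.23) and *Lifr* (1.55). Among genes of other lineages the differences were those of *Gata6* (2.58), *Gata4* (1.39), *Hnf4a* (3.21), *Pdgfra* (1.76), *Lama1* (1.79), *Eomes* (2.88), *Tfap2c* (1.12), *Plet1* (3.50), *Gata2* (-1.87), *Sox11* (3.64), *Neurod1* (2.54), *Zic1* (3.18), *Pou3f2* (-4.12) and *Map2* (1.17). Among keratin, cytoskeletal and mesenchymal genes the differences were those of *Krt19* (5.43), *Krt17* (4.56), *Krt7* (4.50), *Cnn1* (-3.75), *Vim* (1.77), *Fn1* (-1.33), *Zeb2* (3.65) and *Thy1* (-1.33). Among p53, death and stress genes the differences were those of *Cdkn1a* (1.71), *Mdm2* (1.29), *Eda2r* (1.56), *Ccng1* (1.03), *Btg2* (1.55), *Perp* (1.43), *Trp53inp1* (1.10), *Bcl2* (-1.53), *Trib3* (-1.22), *Chac1* (-1.44) and *Asns* (-1.29). Among antiviral genes the differences were those of *Rsad2* (5.17), *Zbp1* (3.62), *Eif2ak2* (1.14), *Bst2* (1.02) and *Ddx60* (-2.28). Among germline and silencing genes the differences were those of *Morc1* (1.98), *Tex19.1* (1.83), *Setdb1* (-1.05), *Mov10l1* (1.18), *Taf7l* (1.77), *Slc25a31* (1.2), *Hormad1* (1.81), *Sohlh2* (2.06), *Tex11* (1.61), *Stra8* (3.05) and *Tex101* (-1.6). Among imprinted genes the differences were those of *Peg3* (2.52), *Peg10* (2.05), *Usp29* (2.30), *H19* (2.91), *Grb10* (-1.65), *Dlk1* (-2.07), *Rian* (-1.07) and *Plagl1* (-1.23). Among nuclear envelope, growth and Y-linked genes the differences were those of *Lmnb1* (-2.93), *Lmna* (1.17), *Syne1* (1.72), *Slc2a3* (-1.19), *Ccnd2* (2.22), *Uba1y* (-1.92) and *Kdm5d* (-1.34). Of the genes named by the size of their change alone, the QKO passage was higher for *Rbbp8nl* (4.20), *Irs4* (3.49), *Abca9* (3.66), *Galnt3* (3.15), *Zfp608* (2.26), *Bcl11a* (3.08), *Cass4* (3.14), *Vrtn* (3.35), *Spic* (2.99), *Kcnh8* (8.76), *Tal1* (7.36), *Tgfbi* (5.67), *Mir142hg* (4.95) and *Gfra2* (4.79). It was lower for *Aqp3* (-1.62), *Tdpoz8* (-7.59), *Stk33* (-7.31), *Tmem132d* (-6.22), *Prom2* (-5.28), *Akr1c18* (-5.09), *Uggt2* (-4.95), *Aadat* (-4.41), *Tmem54* (-4.40) and *Nt5e* (-3.49). The TE families with a higher QKO passage were IAP1-MM_I (1.31), HERVL74-int (1.02), MamGyp-int (1.08), RLTR27 (1.01) and UCON41 (2.27). Those with a lower one were RLTR45-int (-3.15), ERVB4_2-I_MM (-3.09), MERVL-int (-1.12), ERVB4_2-LTR_MM (-2.57), ERVB4_3-I_MM (-3.58), L1M3a (-2.93), RLTR13C2 (-3.40) and ETnERV3-int (-2.04).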

How the results depend on the processing

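Of 2604 values of named genes and TE families in the QKO passage under the alternatives 2591 kept their call, 5 gained and 8 lost it, and 0 were counted as turned. Of 2952 differences between the passages 2864 kept their call, 17 gained it, 65 lost it and 6 were counted as turned in sign. Values near 0 with all libraries and called under neither setting were left out of the count of turned ones. More signs thus changed than were counted, as with *Axin2* (0.07, or -0.85 with WT replicates 1 to 4 alone). The differences counted as turned were *Dusp6* (-0.22), *Zscan4d* (-0.58), *Oas1a* (-0.07), *Gpm6a* (-0.20) and *Srarp* (-0.43) with WT replicates 1 to 4 alone and *Otx2* (-1.0) with WT replicates 5 to 8 alone, and the cause was not tested. Of 126 called differences 115 were still called with WT replicates 1 to 4 alone and 116 with WT replicates 5 to 8 alone.

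The count of TE families with a higher QKO passage, 6, was 3 with DESeq2, RLE size factors or no filter and 2 with scaling from genes alone or a test against a fold of 1.5. TE families that rose in WT, 27, were 14 with WT replicates 5 to 8 alone or with WT libraries only. The WT gain in LTR share, 0.48 points, was 0.581 (exact permutation, adjusted p = 0.0762) with replicates 1 to 4 and 0.38 (adjusted p = 0.229) with replicates 5 to 8. Neither set of 4 could reach an unadjusted exact permutation p below 0.0286. With genes of at least 5 CPM only, the QKO medians were -0.16 for chromosome 16 and 0.03 for X. Without 1 QKO library, genes that rose were 3988 to 4151 and fell 2949 to 3097, differences 1559 to 1616 higher and 1246 to 1337 lower, TE families that rose 26 to 50 and fell 33 to 39, and TE differences 3 to 7 higher and 16 to 18 lower. The lowest TE difference count, 3, came without QKO mES replicate 2. QKO gains in share were then 0.824 to 1.64 points for all TEs, 0.214 to 0.388 for LINEs, 0.645 to 0.997 for SINEs and 0.218 to 0.437 for LTR elements, the highest of each without mES replicate 3.

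With a replicate block 4135 genes rose and 2970 fell in QKO, 4284 and 2983 in WT, and 1592 and 1316 had a higher and a lower QKO passage. For TE families the block gave 37 and 37 in QKO, 27 and 25 in WT, and 5 and 15 differences. Among the features named it changed the call of RLTR13C2 and *Sp5* alone. Genes with a few reads in a stage have a ratio that depth limits, and 4 libraries of 1 clone limit what a fold can be laid to.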
